A study of Mus musculus with 45 samples.

Results

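The comparison was between tumours from mice given serplulimab together with HLX53 at its full dose of 10 mg/kg and tumours from mice given vehicle, in the experiment labelled T2106. It comprised 6 of the 45 tumours of the series, 3 per group, picked by treatment label alone. The tumours were grown under the skin from CT26, an undifferentiated colon carcinoma line of BALB/c mice. All hosts, vehicle mice included, were HuGEMM animals on the BALB/c background with human PD-1 and human TIGIT knocked in. Serplulimab, an antibody against PD-1, was given at 10 mg/kg and HLX53, an agent that blocks TIGIT, at 10 mg/kg, by injection into the peritoneum 2 times a week from day 8 after inoculation. Vehicle mice received saline on the same schedule. The day of collection and the sex and age of the mice are not given in the sources used here. Where a wider view was needed, T2106 also held 3 tumours each with serplulimab at 10 mg/kg, with HLX53 at 10 mg/kg, with serplulimab at 10 mg/kg and HLX53 at 5 mg/kg, and with pembrolizumab and tiragolumab at 10 mg/kg each. A second experiment, T2215, repeated the full-dose combination and its vehicle with 3 tumours each. Every sample was RNA of a whole tumour, so fewer cells of a type and less RNA per cell cannot be told apart in any value given here.

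PD-1 and TIGIT are inhibitory receptors on T cells, and TIGIT is also carried by natural killer cells. PD-1 is engaged by PD-L1 and PD-L2 on tumour and myeloid cells. TIGIT competes with the activating receptor CD226 for the ligands CD155 and CD112, and CD96 shares CD155 with them. Blocking either receptor is known to release killing by lymphocytes, with interferon gamma, granzymes and perforin as its main effectors. The mice expressed human receptors from the knocked-in genes, while the tables list mouse gene models.

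Values are FPKM, fragments scaled to transcript length and to the total mapped, listed by tumour in the order 1, 2, 3 of the replicate labels, and vehicle values stand before combination values. Differences are combination minus vehicle on the log2(FPKM + 0.5) scale, with their standard error. They were tested with limma across all 18 libraries of T2106, and genes with an adjusted p under 0.05 are said to have risen or fallen. Of 15070 genes tested, 6633 (44.0%) passed, 3532 of them higher (23.4%) and 3101 lower (20.6%), and 8443 had an unadjusted p under 0.05 (56.0%). The values of 4764 genes lay above vehicle without overlap between the groups (31.6%), and those of 5065 below (33.6%). Only genes at 0.5 FPKM or more in 3 libraries were tested, and 797 of them reached that level only through the combination tumours. The filter favoured higher values of such genes in that group, and 619 of the 797 passed, all of them as higher. Of the other 14273 genes 6014 passed (42.1%), of which 2913 rose (20.4%) and 3101 fell (21.7%). The median difference over all genes was −0.04. A count within a list of genes is read against these shares. The number of reads behind each value is not known.

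The 3 combination tumours were not equally far from vehicle. Over the genes tested, combination tumour 1 correlated with the vehicle tumours at 0.84 to 0.86, tumour 3 at 0.87 to 0.88 and tumour 2 at 0.93 to 0.94. The vehicle tumours correlated with each other at 0.97 to 0.99. The highest correlations of combination tumours 1, 2 and 3 with a tumour given serplulimab alone were 0.955, 0.980 and 0.971. Combination tumour 2 correlated with the others of its own group at 0.958 and 0.972, below its highest value with serplulimab alone. The number of genes that passed was 351, 7345 and 871 without combination tumours 1, 2 and 3 in turn, and 3208, 3789 and 4309 without vehicle tumours 1, 2 and 3. Of the 6633 genes 6465 were tested in each of these 6 refits and kept their direction there, and 168 lay under the level tested in at least 1 of them. In each of the 6 refits 335 genes passed (2.22% of those tested), 250 higher and 85 lower, and 102 of the 250 had been tested only through the combination tumours. Without combination tumours 1 and 3 and tumour 2 of the 5 mg/kg group, the libraries that stand apart from the rest of T2106, 26 genes passed. That fit holds 1 combination tumour, tumour 2, whose spread is assumed to be that of the other groups. Some calls that held in all 6 refits are named as such. A call not so named may have held in all 6, or been lost or untested in at least 1. For gene lists the counts of calls in the 6 refits are given in the order without combination tumours 1, 2 and 3, then without vehicle tumours 1, 2 and 3. They include genes tested only through the combination tumours, of which 14 of the 52 lists examined held 1 or 2 and 8 held 3 or more. For those 8 the counts without such genes are also given.

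**Figure D1:**
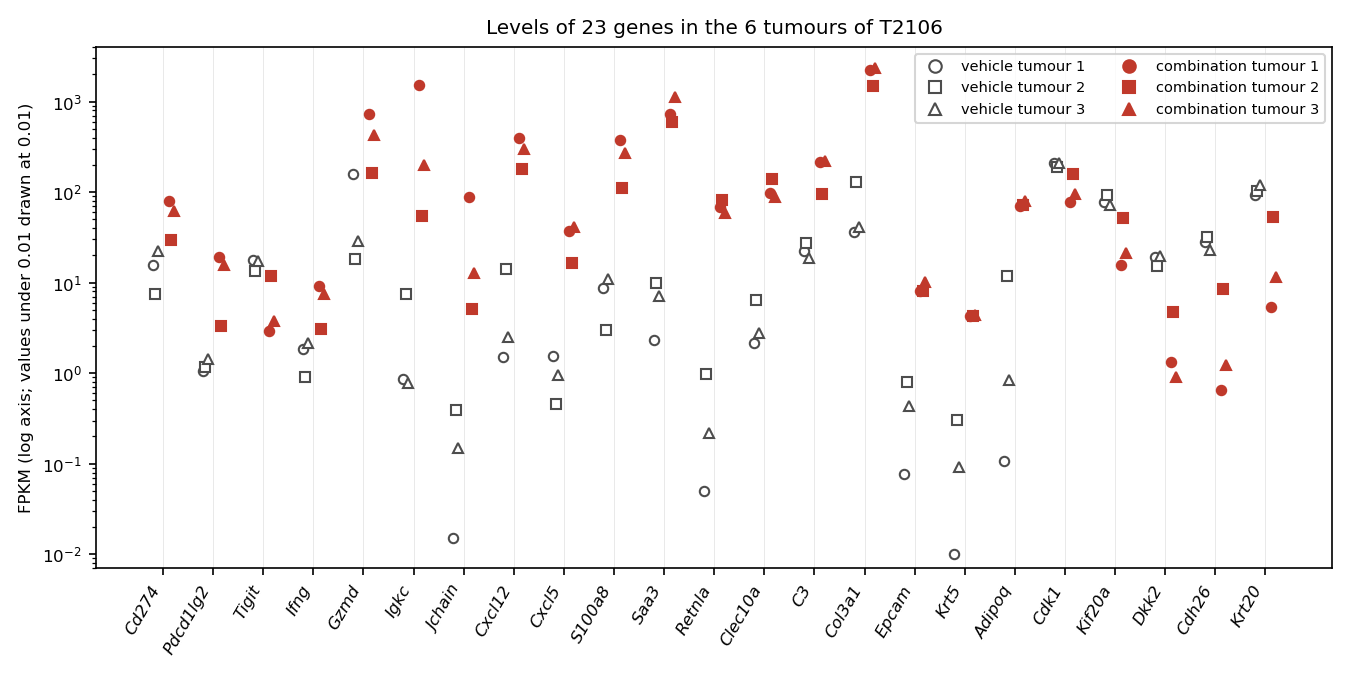
FPKM (log axis) of 23 genes in the 3 vehicle tumours (open symbols) and the 3 combination tumours (filled symbols) of T2106, with 1 symbol shape per replicate label. In most of the genes shown combination tumour 2 (square) lies nearest to the vehicle tumours. Krt5, at 4.24 to 4.42 FPKM, has its 3 combination values close together.

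Genes of fat and of lining epithelium were higher in the combination tumours and were measured first. Whether their RNA came from tissue around the tumour or from tumour cells was not tested. Of 21 tested genes of fat cells 18 rose and 1 fell, with a median difference of 3.0. Without 2 tested only through the combination tumours, 16 of 19 rose and 1 fell. The fat hormone gene Adipoq stood at 0.107, 11.8 and 0.846 FPKM in the vehicle tumours and at 70.6, 71.8 and 80.6 in the combination tumours. The difference was 5.11 ± 1.32 (adjusted p = 0.0135), and the highest vehicle value was that of tumour 2. Lpl, the lipase that releases fatty acids from lipoproteins, went from 2.41, 5.99 and 1.98 to 151, 123 and 128 FPKM. Its difference of 5.22 ± 0.97 (adjusted p = 0.00761) held in all 6 refits. The mean of the fat list on the log2(FPKM + 0.5) scale was 1.31, 3.33 and 1.82 in the vehicle tumours and 5.40, 5.06 and 5.32 in the combination tumours, and its summed level 231 to 707 against 2526 to 2879 FPKM. Of the other defining markers Cidec (5.29 ± 1.35) and Plin1 (4.28 ± 0.97) rose. The leptin gene Lep, tested only through the combination tumours, was at under 0.01, 0.0918 and 0.0121 FPKM with vehicle and 2.56, 1.01 and 1.42 with the combination. Fat gene calls in the 6 refits numbered 4, 18 and 8, then 13, 18 and 18. With the fat score added to the fit as a covariate, 3 of 15070 genes passed, and since the score moved with the groups, its part in the differences of every gene group below and that of treatment cannot be told apart.

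Epithelial adhesion genes were higher in the combination tumours. All 17 tested members passed, but 9 of them were tested only through these tumours. The other 8 rose with a median of 2.67, and 6 of them (75%, against 1.63% of all genes so tested) passed in each of the 6 refits. Epcam, a surface adhesion molecule of epithelia (ENSMUSG00000045394; chromosome 17, 87635979 to 87651129, plus strand), stood at 0.0775, 0.794 and 0.430 FPKM with vehicle and at 8.17, 8.13 and 10.2 with the combination. No vehicle tumour came near the lowest combination value, and the difference was 3.39 ± 0.61 (adjusted p = 0.0073). Cdh1, which encodes E-cadherin, had 0.307, 0.369 and 0.360 against 3.55, 2.64 and 4.55 FPKM, a difference of 2.25 ± 0.40 (adjusted p = 0.0073). The tight junction claudins Cldn3 (3.09 ± 0.59) and Cldn4 (3.18 ± 0.67) rose as well. Of the genes tested only through the combination tumours, the claudin Cldn7 had 0.0493, 0.280 and 0.0514 against 2.9, 2.73 and 2.26 FPKM and the epithelial splicing regulator Esrp1 under 0.01, 0.0779 and 0.0467 against 1.05, 0.885 and 1.25. The list counted 14, 17 and 16, then 17, 17 and 17 calls in the 6 refits. The median of all 17 was 2.14, and 0.78 with the fat score as a covariate. The list score took in all 17 genes, including the 9 tested only through the combination tumours. It was −0.65, −0.19 and −0.43 with vehicle and 1.68, 1.52 and 1.84 with the combination. The highest score among the other 15 tumours of T2106 was 1.30, in tumour 2 of the 5 mg/kg group.

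Keratins moved in both directions. Of 51 keratin genes 11 were tested, of which 8 passed as higher and 1 as lower. Krt5, Krt14, Krt15 and Krt17 were tested only through the combination tumours, and of the other 7 keratins 4 rose and 1 fell. Krt5 and Krt14, the paired keratins of basal cells in stratified and glandular epithelium, were low with vehicle. Krt5 had under 0.01, 0.304 and 0.0916 against 4.28, 4.24 and 4.42 FPKM. Krt14 had 0.0159, 0.270 and 0.0800 against 3.08, 3.31 and 3.0 FPKM. The groups lay far apart in both. Krt8 and Krt18, the pair of simple epithelium, rose. Krt8 went from 0.103, 3.28 and 1.75 to 21.1, 23.8 and 40.4 FPKM. Krt18 went from 9.26, 12.1 and 10.4 to 25, 37.8 and 40.8 FPKM (1.64 ± 0.23, adjusted p = 0.00357). Krt20, a keratin of gut lining, was the keratin that fell, from 91.8, 102 and 120.3 to 5.44, 53.1 and 11.5 FPKM (−2.74 ± 0.81, adjusted p = 0.0201), with combination tumour 2 between the others and vehicle. Krt7 and Krt18 passed in all 6 refits, as did Krt5, Krt14 and Krt17 among those tested only through the combination tumours. The fall of Krt20 was lost without combination tumour 1 or 3 or vehicle tumour 3. Keratin calls in the 6 refits numbered 5, 9 and 5, then 7, 9 and 8.

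Genes of mammary epithelium, which is embedded in fat under the skin, were counted too. Of 19 tested 15 passed as higher and 1 as lower (median 1.71), and of the 14 not tested only through the combination tumours 10 rose and 1 fell (median 2.44). Among the other 5, the prolactin receptor gene Prlr had 0.0196, 0.481 and 0.231 against 6.12, 5.26 and 6.31 FPKM, the oxytocin receptor gene Oxtr under 0.01, 0.0378 and 0.0276 against 0.967, 1.28 and 1.43 and the luminal transcription factor Elf5 under 0.01, 0.170 and 0.0289 against 0.962, 0.707 and 1.31. The milk protein genes Csn2, at most 0.0749 FPKM in the 6 tumours, and Wap, at most 0.0578, lay under the level tested. Mammary calls in the 6 refits numbered 7, 15 and 7, then 11, 15 and 13. This list shares genes with the keratin and epithelial adhesion lists, so the counts overlap. Of its 6 genes that passed in all 6 refits, Krt7, Krt18, Cldn3 and Cldn4 belong to those lists too. The others, Prlr and Oxtr, were tested only through the combination tumours. Of 19 genes of the outer skin barrier 5 were tested, 3 higher and 1 lower, and the cornified layer genes Lor and Flg were under 0.01 FPKM in the 6 tumours, except for Lor at 0.0156 in vehicle tumour 2. Skeletal muscle genes were low, with 13 of 20 under the level tested and Myh4, a fast myosin, under 0.01 FPKM in the 6 tumours. Haemoglobin genes overlapped between the groups, with 0 of 6 erythrocyte genes past the test and Hbb-bs at 48.2, 296 and 58.4 against 70.8, 122 and 114 FPKM. The label colon carcinoma was checked against gut genes. The gut regulators Cdx1 and Cdx2 and the brush border gene Vil1 were too low to test in every group, and of the 6 colon genes tested 1 rose and 3 fell.

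**Figure D2:**
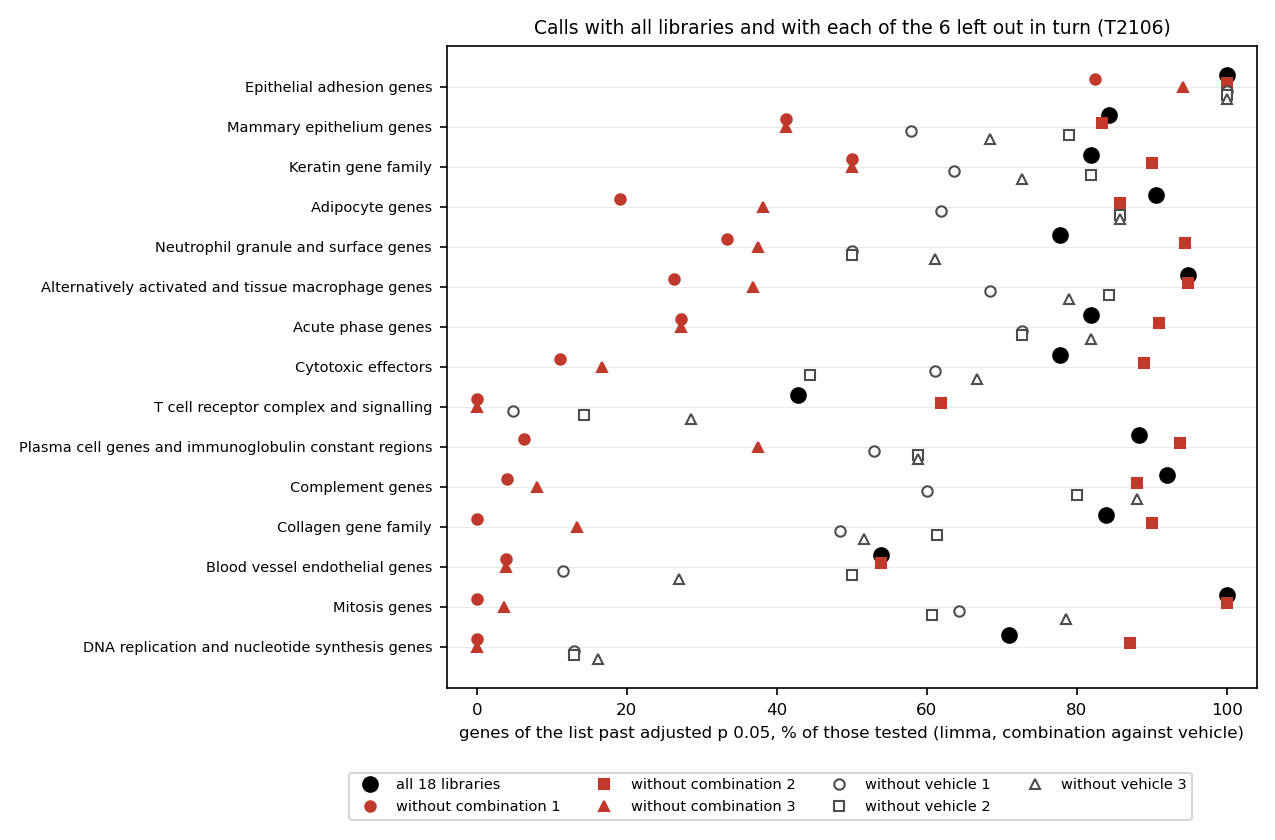
Share of the tested genes of 15 lists past an adjusted p of 0.05 (limma, x axis in %), with all 18 libraries (black) and with each of the 6 libraries compared left out in turn (red: combination, grey: vehicle). Epithelial adhesion genes, 9 of 17 of which were tested only through the combination tumours, stay at 14 or more of 17 throughout, while mitosis genes fall from 28 of 28 to 0 and 1 without combination tumours 1 and 3.

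The targets of the treatment came next. The mouse gene of PD-1, Pdcd1, was low in both groups, at 1.39, 0.684 and 2.05 FPKM with vehicle and 3.46, 1.68 and 2.83 with the combination (0.78 ± 0.65, adjusted p = 0.326). Tigit fell, from 17.9, 13.6 and 17.3 to 2.89, 11.9 and 3.81 FPKM (−1.56 ± 0.50, adjusted p = 0.0258), with combination tumour 2 close to the lowest vehicle tumour and the other combination tumours well below. Because the hosts carry human receptor genes, these values count reads placed on the mouse models and do not measure the human receptors.

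Ligands of PD-1 rose together. Cd274, which encodes PD-L1 (ENSMUSG00000016496; chromosome 19, 29367455 to 29388095, plus strand), had 15.7, 7.46 and 22.2 FPKM with vehicle and 78.9, 29.7 and 62.4 with the combination. The groups did not overlap, and the difference was 1.90 ± 0.47 (adjusted p = 0.0126). Its chromosomal neighbour Pdcd1lg2, the gene of PD-L2 (ENSMUSG00000016498; chromosome 19, 29410919 to 29471161, plus strand), had 1.06, 1.16 and 1.43 against 19, 3.3 and 15.7 FPKM and differed by 2.63 ± 0.71 (adjusted p = 0.0153). Of the TIGIT axis, the competing receptor Cd226 rose by 1.70 ± 0.58 and Cd96 by 1.33 ± 0.42. The ligand Pvr, or CD155, was 67.8, 48 and 61.1 FPKM with vehicle and 29, 35.7 and 32.2 with the combination, lower without overlap but short of the threshold (−0.85 ± 0.33, adjusted p = 0.0512). Pvrl2, or CD112, stood at 12.6, 14.6 and 12.4 against 22.5, 16.5 and 22.9 FPKM (0.61 ± 0.26, adjusted p = 0.0628). Of the 11 genes of both axes tested 7 rose and 1 fell, and calls in the 6 refits numbered 0, 9 and 0, then 2, 5 and 5. The median of the list was 1.31, and −0.06 with the fat score as a covariate.

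Among 23 other checkpoint and costimulatory genes 12 rose and 1 fell. Havcr2, the gene of the inhibitory receptor TIM-3, had 8.25, 3.11 and 7.08 FPKM with vehicle and 33, 11.2 and 23.7 with the combination (1.77 ± 0.47). The costimulatory ligand gene Cd86 (1.76 ± 0.36) and the receptor genes Cd40 (1.98 ± 0.47), Icos (1.71 ± 0.54) and Cd28 (1.52 ± 0.56) rose, and Ctla4 by 1.51 ± 0.51. Lag3 had 3.45, 2.77 and 3.33 against 10.5, 3.54 and 7.98 FPKM and did not pass (0.98 ± 0.54, adjusted p = 0.144). Tnfsf9, the ligand of the costimulatory receptor 4-1BB, was the member that fell (−1.25 ± 0.33). Calls in this list numbered 0, 14 and 1, then 8, 5 and 8.

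T cell receptor and signalling genes were higher throughout, but most of those tested did not pass. Of 21 tested genes 20 had values above vehicle without overlap, 9 passed and none fell, with a median of 1.39. Cd3e, a chain of the receptor complex, had 3.74, 3.55 and 4.06 FPKM with vehicle and 10.8, 4.6 and 9.5 with the combination (0.96 ± 0.71, adjusted p = 0.265). Cd8a, of killer T cells, had 5.84, 3.0 and 6.08 against 15.1, 7.02 and 13 FPKM (1.15 ± 0.77, adjusted p = 0.218). Cd4, of helper T cells and of some macrophages, went from 0.692, 1.22 and 0.908 to 12.3, 4.96 and 6.83 FPKM and passed (2.49 ± 0.72, adjusted p = 0.0188). In these genes combination tumour 2 lay nearest to vehicle. T cell receptor calls in the 6 refits numbered 0, 13 and 0, then 1, 3 and 6, and the median was −0.53 with the fat score as a covariate. The regulatory T cell factor Foxp3 stood at 0.413, 0.575 and 0.382 against 1.73, 0.862 and 1.71 FPKM without passing (0.99 ± 0.39, adjusted p = 0.0507), while Il2ra, the high-affinity interleukin 2 receptor chain, rose by 1.60 ± 0.45.

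Genes of killing rose widely. Of 18 tested effectors 14 rose and none fell (median 1.55). Ifng had 1.84, 0.917 and 2.16 FPKM with vehicle and 9.13, 3.07 and 7.53 with the combination, and Gzmb, granzyme B, had 64.8, 32.8 and 52.7 against 174, 79.8 and 116. The groups did not overlap in either gene, and the differences were 1.66 ± 0.36 (adjusted p = 0.0101) and 1.27 ± 0.38 (adjusted p = 0.02). The largest differences in the list were those of 5 neighbouring granzyme genes on chromosome 14, Gzmc, Gzmd, Gzme, Gzmf and Gzmg, which span 56117626 to 56234656 on the minus strand (GRCm38), and the proteoglycan gene Srgn. Gzmd had 159, 18.2 and 28.5 FPKM with vehicle and 719, 164 and 429 with the combination, with vehicle tumour 1 close to combination tumour 2. Gzmg rose most of them (3.47 ± 0.84, adjusted p = 0.0119), then Gzmd (3.06 ± 0.76), Gzme (3.03 ± 0.77), Gzmf (2.97 ± 0.71) and Gzmc (2.05 ± 0.52). These 5 genes are near copies of each other, so how reads were divided among them is uncertain. Prf1, which encodes the pore-forming perforin, rose by 1.44 ± 0.49, and Fasl, the death receptor ligand, stood at 0.68 ± 0.35 (adjusted p = 0.12). Calls in the list numbered 2, 16 and 3, then 11, 8 and 12. Only Tnf and Srgn, the gene of the granule proteoglycan serglycin, passed in all 6 refits. Tnf also belongs to the lists of classical activation and of inflammatory cytokines below. Ifng passed in 5 of the 6 refits, Gzmc, Gzmd, Gzme, Gzmf and Gzmg in 4 each, Gzmb in 3 and Prf1 in 2. The median with the fat score as a covariate was 1.25. Of 12 natural killer cell genes 3 rose, and the activating receptor gene Ncr1 had 2.63, 2.76 and 5.48 against 9.3, 4.87 and 6.68 FPKM (0.88 ± 0.37, adjusted p = 0.0659).

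Antibody genes rose, with a wide spread among the combination tumours. Of 17 plasma cell and immunoglobulin constant region genes 15 rose and none fell (median 2.87), and 12 of 14 rose without the 3 tested only through the combination tumours. Igkc, the kappa light chain constant region, had 0.860, 7.54 and 0.770 FPKM with vehicle and 1540.3, 54.8 and 198 with the combination. Combination tumour 1 held by far the most and tumour 2 the least, though still above every vehicle tumour, and the difference was 6.74 ± 1.45 (adjusted p = 0.01). Jchain, which joins secreted IgA and IgM, followed the same order at 0.0150, 0.393 and 0.151 against 89, 5.07 and 12.8 FPKM (4.81 ± 1.09). Igha, the IgA heavy chain, had 0.195, 1.14 and 0.267 against 160.3, 13.4 and 26.3 FPKM (5.35 ± 1.26), and Ighm, the IgM heavy chain, did not pass (1.78 ± 0.77, adjusted p = 0.0707). Of 11 B cell genes 8 passed as higher, and of the 7 not tested only through the combination tumours 5 rose. Plasma cell calls in the 6 refits numbered 1, 15 and 6, then 9, 10 and 10. B cell calls numbered 1, 9 and 1, then 2, 6 and 5, and the surface gene Cd37 held in each.

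Of 20 chemokine and receptor genes that draw lymphocytes 12 rose and none fell. Cxcl12, a chemokine of stromal cells (ENSMUSG00000061353; chromosome 6, 117168535 to 117181367, plus strand), had 1.49, 14.3 and 2.53 FPKM with vehicle and 399, 182 and 301 with the combination. It rose by 5.97 ± 1.2 (adjusted p = 0.00873), and the call held in all 6 refits. Cxcl13, which guides B cells, rose by 5.15 ± 1.39. Ccl5, an attractant of T cells, had 41.1, 36.9 and 35 against 237, 71.8 and 171 FPKM (1.91 ± 0.71, adjusted p = 0.0433). The interferon-induced Cxcl9 had 37.9, 102 and 70.9 against 93.2, 65.4 and 90.6 FPKM (0.33 ± 0.55, adjusted p = 0.624), and Cxcl10 had 31.6, 25.1 and 44.9 against 34.9, 45.1 and 43.5 (0.31 ± 0.29, adjusted p = 0.376), with overlapping groups. Their receptor gene Cxcr3 rose by 2.39 ± 0.78. Calls in the 6 refits numbered 1, 14 and 1, then 6, 8 and 8.

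Chemokines of granulocytes and monocytes rose as well. Cxcl5, a neutrophil attractant (ENSMUSG00000029371; chromosome 5, 90759360 to 90761624, plus strand), had 1.56, 0.452 and 0.949 FPKM with vehicle and 37.6, 16.5 and 41 with the combination, a difference of 4.40 ± 0.76 (adjusted p = 0.00682) that held in all 6 refits. Its receptor Cxcr2 had 0.465, 0.277 and 0.229 against 13.6, 3.81 and 9.92 FPKM (3.39 ± 0.81). Cxcl1 had 21.2, 3.98 and 23.1 against 22.8, 19.4 and 34.4 FPKM and did not pass (0.94 ± 0.57, adjusted p = 0.174). Of the 14 genes of this group 10 rose, and of 17 monocyte and eosinophil attractants and receptors 12 rose, with no fall in either. Ccl11, or eotaxin, rose by 4.76 ± 1.14, Ccl8 by 3.42 ± 0.88 and the eosinophil receptor Ccr3 by 2.85 ± 0.49. Ccl2, the main monocyte attractant, was high in both groups at 362, 179 and 309.5 against 289.8, 342 and 379 FPKM and did not pass (0.30 ± 0.28, adjusted p = 0.366). Calls in the neutrophil group numbered 1, 10 and 1, then 9, 8 and 10. Calls in the monocyte group numbered 3, 12 and 4, then 9, 9 and 10.

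Neutrophil and acute phase genes held some of the largest rises. S100a8 and S100a9, the subunits of calprotectin, lie next to each other on chromosome 3 (90668978 to 90670035 and 90692632 to 90695721). S100a8 had 8.81, 3.04 and 10.9 FPKM with vehicle and 373, 111 and 273 with the combination (4.96 ± 0.82, adjusted p = 0.0059). Retnlg, another neutrophil product, had 0.643, 3.03 and 0.467 against 30.9, 22.6 and 25.9 FPKM (4.09 ± 0.63, adjusted p = 0.00473). The defining neutrophil surface gene Ly6g stayed low, at under 0.01, 0.0422 and under 0.01 against 1.21, 0.0986 and 0.284 FPKM (0.85 ± 0.48, adjusted p = 0.151). Saa3, an acute phase apolipoprotein of macrophages and fat tissue, had 2.32, 9.98 and 7.12 FPKM with vehicle and 722, 587 and 1124 with the combination, the second largest rise by the naming rule (7.0 ± 1.13, adjusted p = 0.00539). Hp, haptoglobin, had 2.55, 60.8 and 3.17 against 428, 302 and 575 FPKM (5.58 ± 1.32), its highest vehicle value again in tumour 2. Of 18 neutrophil genes 14 rose, of 11 acute phase genes 9 rose, and none fell in either list. Without 5 neutrophil genes tested only through the combination tumours, Ly6g among them, 13 of 13 rose. S100a8, S100a9, Retnlg, Lcn2, Prtn3 and Saa3 passed in all 6 refits. Neutrophil calls numbered 5, 17 and 6, then 9, 9 and 11 in the 6 refits. Acute phase calls numbered 3, 10 and 3, then 8, 8 and 9.

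Genes of alternatively activated and tissue-resident macrophages rose nearly without exception, 18 of 19 (median 2.75). Retnla, induced by interleukin 4 and 13 (ENSMUSG00000061100; chromosome 16, 48842551 to 48844461, plus strand), had 0.0505, 0.988 and 0.219 FPKM with vehicle and 68.9, 82 and 59.3 with the combination. The combination tumours lay close together, and the difference of 6.38 ± 0.96 (adjusted p = 0.0043) held in all 6 refits. Clec10a, a lectin receptor, had 2.17, 6.44 and 2.78 against 97.1, 140.5 and 88.3 FPKM (4.77 ± 0.85), and Cd163, the haemoglobin scavenger receptor, had 0.511, 5.89 and 2.3 against 32.2, 79.3 and 48 (4.26 ± 1.13), in both cases highest in combination tumour 2. Clec10a, Retnla, Folr2, Cd209f and Cd209g passed in all 6 refits. Arg1, arginase, had 148, 10.6 and 94.4 against 366, 226 and 422 FPKM, and its difference of 2.60 ± 0.78 was 1.46 without vehicle tumour 2. Of 13 genes of classical activation 7 rose and none fell. Nos2, the inducible nitric oxide synthase, had 5.09, 1.84 and 5.33 against 54.3, 19 and 53.7 FPKM (3.19 ± 0.57, adjusted p = 0.0073) and held in all 6 refits. With the fat score as a covariate the median of the first list was 0.51. General macrophage genes rose in 14 of 17, with Adgre1, or F4/80, at 19, 15.1 and 26.1 against 140.5, 73 and 122 FPKM (2.43 ± 0.67). Calls in the 6 refits numbered 5, 18 and 7, then 13, 16 and 15, for alternative activation. For classical activation they numbered 2, 9 and 3, then 5, 5 and 5. For general macrophage genes they numbered 0, 15 and 3, then 7, 11 and 12.

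Inflammatory cytokines rose in 10 of 18 tested genes with no fall. Il1b had 15, 11.2 and 18.3 FPKM with vehicle and 80, 29.8 and 90.6 with the combination (2.01 ± 0.50, adjusted p = 0.0124), and Il1rn, its natural antagonist, had 33.8, 5.25 and 22.7 against 166, 56 and 103 (2.57 ± 0.56). Il33, an alarmin of stromal cells, rose by 3.23 ± 0.71 and Il6 by 1.48 ± 0.53. Calls in this list numbered 1, 13 and 4, then 8, 7 and 9. Of 14 mast cell and basophil genes 6 rose and 1, the transcription factor Gata2, fell (−1.29 ± 0.35), and calls numbered 0, 4 and 1, then 4, 3 and 3.

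Complement genes of the classical and alternative routes rose. Of 25 tested complement genes 22 rose and 1 fell (median 1.83). C3, the central component, had 22.1, 27.2 and 18.5 FPKM with vehicle and 215, 95.3 and 219 with the combination (2.86 ± 0.65, adjusted p = 0.011). C1qa, which starts the classical route, had 268, 390.2 and 418 against 1397, 720.1 and 1055 FPKM (1.53 ± 0.46), and C4b, which follows it, had 21.2, 26.9 and 26 against 133, 71.2 and 122 (2.07 ± 0.49). Factor D, encoded by Cfd and also a major product of fat cells, had 0.898, 106 and 6.52 against 634, 442 and 679.8 FPKM (5.83 ± 1.63). Genes that restrain the system rose too, Cd55 by 3.24 ± 0.53, Cd59a by 2.43 ± 0.51 and Serping1 by 2.12 ± 0.54. Masp1, of the lectin route, was the gene that fell (−1.69 ± 0.44, adjusted p = 0.0136). Calls numbered 1, 22 and 2, then 15, 20 and 22 in the 6 refits, and Cd55 held in each. Among 6 Fc receptor genes 3 rose, namely Fcer1g, Fcgr3 and the recycling receptor gene Fcgrt, whose product sets the half-life of therapeutic antibodies and had 28.1, 42.5 and 38.5 against 207, 209.8 and 189 FPKM (2.48 ± 0.60). Fcgr4 had 46.9, 47.5 and 68.3 against 178, 60.9 and 127 FPKM without passing (1.06 ± 0.54, adjusted p = 0.115). Fc receptor calls numbered 0, 5 and 1, then 2, 3 and 2. With the fat score as a covariate the Fc receptor median was −0.27, and that of complement genes 0.05.

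Antigen presentation genes were counted by MHC class. Class II genes rose in 6 of 13 tested genes (median 1.56), with H2-Aa at 11.2, 12.5 and 26.1 FPKM with vehicle and 224, 67.9 and 171 with the combination (3.12 ± 1.04, adjusted p = 0.0289). Ciita, the class II transactivator, had 1.05, 1.53 and 2.59 against 10.1, 3.08 and 7.84 FPKM (1.68 ± 0.70, adjusted p = 0.0623). Class I and peptide loading genes rose in 3 of 23, with a median of 0.38. B2m, the invariant light chain, was 3959, 5603 and 3891 against 5092, 4028 and 4473 FPKM (0.03 ± 0.20, adjusted p = 0.908), and H2-K1 was 30, 49.5 and 30.4 against 37.7, 32.2 and 36.4 (−0.01 ± 0.18, adjusted p = 0.968). The nonclassical gene H2-T23, or Qa-1, did rise (1.59 ± 0.41). Conventional dendritic cell genes rose in 14 of 21, among them Clec9a, of cross-presenting cells (1.48 ± 0.50), and the migration receptor Ccr7 (2.27 ± 0.68). Class II calls in the 6 refits numbered 0, 11 and 0, then 0, 2 and 4, and the class II median was −0.25 with the fat score as a covariate. Class I calls numbered 0, 5 and 0, then 1, 1 and 6. Dendritic cell calls numbered 0, 17 and 0, then 5, 7 and 8, from a median of 1.46 that was −0.03 with that covariate.

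Interferon-responsive genes were read against the 23.4% of all genes that rose. Of 23 genes induced by or acting in interferon gamma signalling 5 rose, near that share, and none fell (median 0.53). Ifngr1, a chain of the receptor, rose by 1.11 ± 0.39. The GTPase Gbp2 had 142, 96.8 and 247 against 163, 288 and 154 FPKM, with overlapping groups (0.36 ± 0.41, adjusted p = 0.473). Of 25 type I interferon genes 0 passed with limma, 0 had an unadjusted p under 0.05, and their median was 0.06. Isg15 had 139, 66.1 and 117 against 194, 92.4 and 105 FPKM, and Mx1 10.2, 5.41 and 7.19 against 26.9, 5.12 and 7.91. Interferon gamma calls in the 6 refits numbered 0, 6 and 0, then 0, 1 and 7. Type I calls numbered 0, 2 and 0, then 0, 0 and 0.

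Connective tissue genes rose, with exceptions in each family. Of 44 collagen genes 31 were tested, 23 rose and 3 fell (median 1.59). Without 5 tested only through the combination tumours, 18 of 26 rose and 3 fell. Col3a1, a fibrillar collagen of loose tissue, had 36.4, 130 and 40.9 FPKM with vehicle and 2243, 1494 and 2367 with the combination (5.09 ± 1.29, adjusted p = 0.013). Col1a1, the main fibrillar collagen, had 41.7, 97.5 and 36.4 against 1009, 461 and 929 FPKM (3.82 ± 1.09). The basement membrane collagen Col4a1 rose by 1.29 ± 0.43, while its family member Col4a5 (−1.57 ± 0.53) fell, as did Col10a1 (−1.61 ± 0.46) and Col8a1 (−0.79 ± 0.20). Among 30 proteoglycans, glycoproteins and cross-linking enzymes 19 rose and 4 fell. Postn, or periostin, had 1.39, 19.4 and 2.2 against 294, 272 and 255 FPKM (5.87 ± 1.29), and Lox, which cross-links collagen, had 1.0, 7.94 and 1.06 against 93.8, 41.4 and 117 (4.84 ± 1.24). Fn1, fibronectin, was 320.5, 251 and 328 against 229.9, 256 and 229.9 FPKM and did not pass (−0.32 ± 0.25, adjusted p = 0.298). Omd, osteomodulin, fell from 16.2, 19.8 and 15.9 to 0.923, 8.51 and 1.25 FPKM (−2.65 ± 0.78, adjusted p = 0.0198). With the fat score as a covariate the collagen median was 0.07. Collagen calls numbered 0, 27 and 4, then 15, 19 and 16 in the 6 refits. Calls of the second list numbered 1, 24 and 3, then 16, 17 and 19.

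Matrix metalloproteases and their inhibitors rose in 11 of 18 genes and fell in 1. Mmp2, a gelatinase, had 0.655, 7.32 and 0.937 FPKM with vehicle and 121, 87.8 and 105 with the combination (5.47 ± 1.23). The collagen-cleaving cathepsin Ctsk had 1.86, 4.77 and 1.33 against 725, 152 and 499 FPKM, and Acp5, tartrate-resistant acid phosphatase, 2.86, 5.27 and 4.4 against 558, 97.3 and 372, differences of 7.07 ± 1.49 and 5.90 ± 1.24. In both, combination tumour 2 lay between vehicle and the other combination tumours. Of 26 fibroblast genes 18 rose and 5 fell. Pdgfra, a general fibroblast receptor, had 9.08, 7.84 and 8.56 against 22.5, 19 and 24.6 FPKM (1.32 ± 0.43), and Fap had 0.339, 1.11 and 0.519 against 14.9, 11.3 and 11.8 (3.56 ± 0.81). The genes that fell were Cd34 (−1.62 ± 0.43), S100a4 (−1.55 ± 0.42), Twist1 (−1.09 ± 0.41), Twist2 (−1.52 ± 0.48) and Prrx1 (−1.33 ± 0.35), of which the last 3 encode transcription factors of mesenchymal cells. Calls numbered 1, 13 and 3, then 8, 7 and 10, for proteases and their inhibitors. For fibroblast genes they numbered 3, 23 and 4, then 16, 17 and 19.

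Of 20 genes of the transforming growth factor beta pathway 6 rose and 7 fell. The latent binding proteins Ltbp4 (−2.11 ± 0.71) and Ltbp1 (−1.94 ± 0.67) and the signal transducer Smad3, at 21.1, 29 and 22.2 FPKM with vehicle and 10.5, 13.8 and 10.9 with the combination (−1.0 ± 0.18, adjusted p = 0.00743), fell. The receptor chain Tgfbr2 rose (1.41 ± 0.44), and Tgfb1 itself was 49.1, 65.3 and 55.2 against 93.2, 65.1 and 78.6 FPKM without passing (0.47 ± 0.23, adjusted p = 0.101). Smad3 passed in all 6 refits, and calls numbered 1, 16 and 1, then 6, 7 and 5. Ltbp1 and Ltbp4 turned direction with the fat score as a covariate, to 0.47 and 0.35. Secreted Wnt antagonists divided as well. Sfrp2 had 0.0225, 3.38 and 0.0437 against 84.3, 84.4 and 111 FPKM (6.49 ± 1.34, adjusted p = 0.00927) and passed in all 6 refits, Sfrp1 rose by 4.12 ± 0.94, and Dkk2 fell from 19.3, 15.3 and 19.5 to 1.34, 4.68 and 0.908 FPKM (−2.95 ± 0.60, adjusted p = 0.00908). Of 19 Wnt ligands, antagonists and targets 10 passed as higher and 2 as lower (median 1.08), and without 6 tested only through the combination tumours 5 of 13 rose and 2 fell (median 0.54). Calls numbered 2, 15 and 4, then 8, 10 and 9.

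Of 26 blood endothelial genes 14 rose (median 1.44), and the 3 with negative differences did not pass. Pecam1, or CD31, had 18.1, 29.2 and 20.5 FPKM with vehicle and 82.3, 54.2 and 69 with the combination (1.59 ± 0.45, adjusted p = 0.0172), and Cdh5, the endothelial cadherin, had 11.4, 27.2 and 14.3 against 43.7, 32.1 and 36.3 without passing (1.14 ± 0.52, adjusted p = 0.0795). Rgs5, of pericytes, rose by 2.40 ± 0.73 and Lyve1, of lymphatic vessels and some macrophages, by 3.22 ± 0.88, while Prox1, the defining lymphatic factor, was at most 0.0325 FPKM in the 6 tumours. Of 11 vascular growth factor genes 3 rose and 1 fell. Vegfa, the main vessel growth factor, was 127, 62.6 and 87.1 against 48.8, 47.6 and 62.1 FPKM (−0.75 ± 0.34, adjusted p = 0.0835), whereas Vegfc (2.23 ± 0.66), Angpt1 (1.77 ± 0.42) and Pdgfb (1.70 ± 0.40) rose. Apln, the gene of apelin, was the one that fell, at 42.9, 22.6 and 34.9 against 11.4, 26.2 and 15.9 FPKM (−0.92 ± 0.31, adjusted p = 0.0283). Blood vessel calls in the 6 refits numbered 1, 14 and 1, then 3, 13 and 7, and the median was −0.35 with the fat score as a covariate. Of 13 lymphatic and pericyte genes 10 rose, and calls numbered 0, 10 and 1, then 4, 8 and 9.

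**Figure D3:**
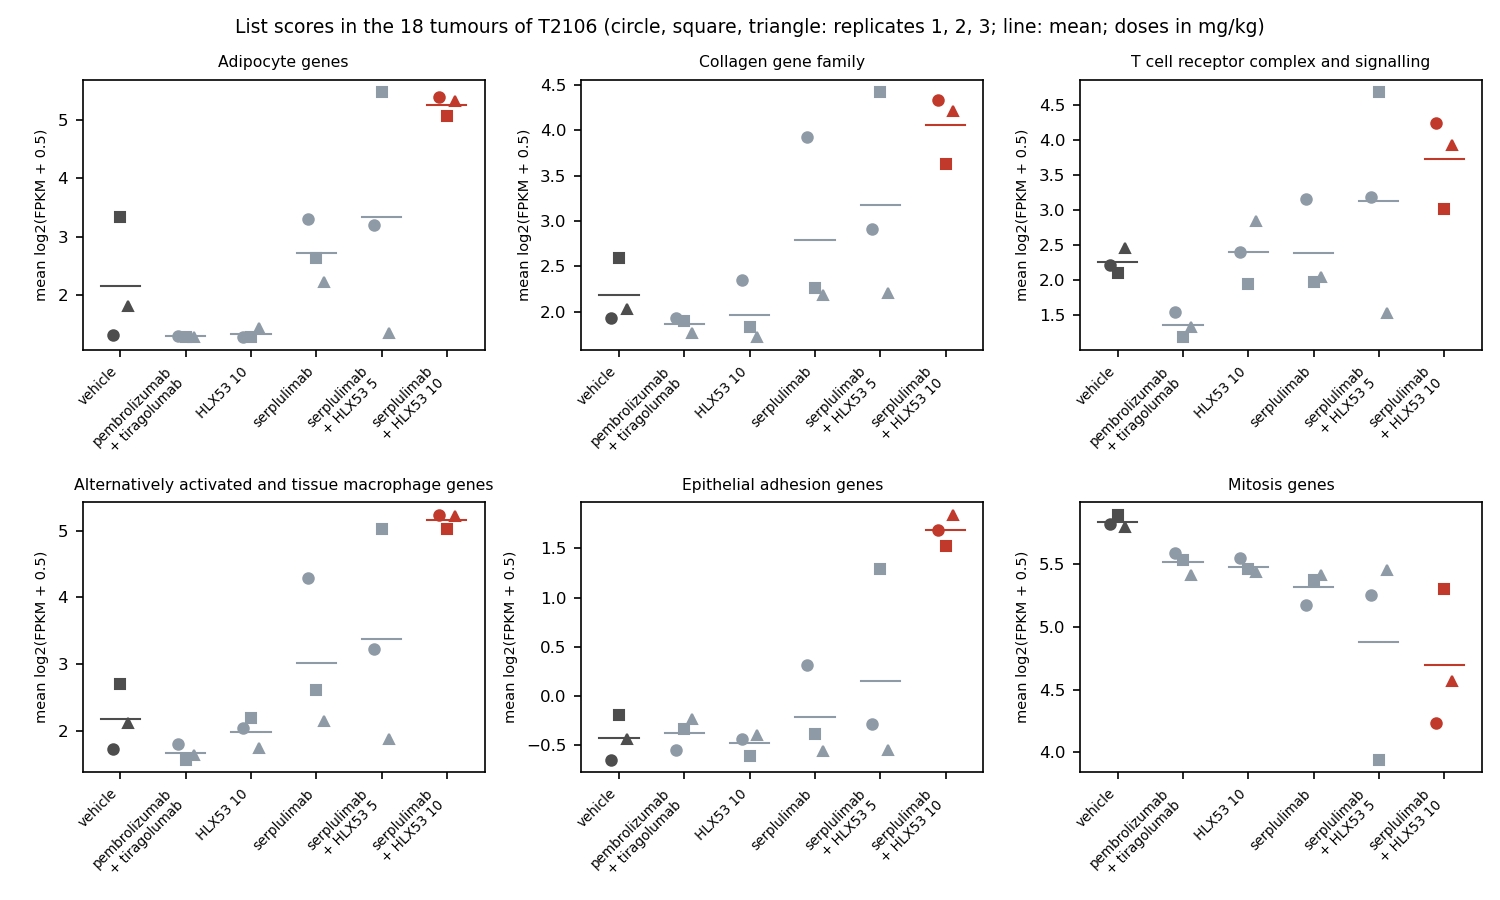
List scores, the mean log2(FPKM + 0.5) over the tested genes of a list (y axis), for 6 lists in the 18 tumours of T2106 by treatment group (red: full-dose combination, dark grey: vehicle, light grey: other groups, line: group mean). The 3 combination tumours lie above every other tumour in epithelial adhesion genes. Of these 17 genes 9 were tested only through the combination tumours, so that the filter favoured higher values there. In the other panels tumour 2 of the 5 mg/kg group lies among or beyond the combination tumours.

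Genes of cell division fell together. All 28 mitosis genes fell (median −1.17, against −0.04 over all genes), and 28 of them lay below vehicle without overlap. Cdk1, the kinase that drives entry into mitosis (ENSMUSG00000019942; chromosome 10, 69335146 to 69352938, minus strand), had 212, 192 and 209 FPKM with vehicle and 76.9, 157 and 95.9 with the combination (−0.95 ± 0.29, adjusted p = 0.0222). Kif20a, a kinesin of the late spindle, fell most, from 77.6, 92.7 and 72.6 to 15.8, 51.2 and 21.2 FPKM (−1.62 ± 0.47, adjusted p = 0.0185). Ube2c and Cdc20, which act in the destruction of cyclins at anaphase, fell (−1.52 ± 0.46 and −1.42 ± 0.38), as did Top2a, the topoisomerase that untangles chromosomes (−0.80 ± 0.29). Combination tumour 2 was nearest to vehicle in each. Mitosis calls in the 6 refits numbered 0, 28 and 1, then 18, 17 and 22, and the median was −0.16 with the fat score as a covariate.

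Promoters of these genes are printed because the genes moved together and share well-known control elements. Mitosis genes are known to be controlled through paired elements near the start of transcription, a CCAAT box and the cell cycle homology region, whose core is TTTGAA. In the RefSeq promoter table (GRCm38.p6) 24 of the 28 mitosis genes were matched. Within the 120 bases before the start, CCAAT or its reverse complement ATTGG was found in 17 of the 24 genes (70.8%), against 22.1% of 27025 genes. TTTGAA or its reverse complement TTCAAA was found in 7 (29.2%), against 7.24%, and both in 5 (20.8%), against 1.55%. The 27025 genes are all those of the promoter table, tested here or not. As the list was drawn up by function, these shares do not depend on the values in the tumours. Whether the elements had a part in the fall was not tested. Starts are those of RefSeq, and the GENCODE position of Cdk1 given above reaches into its window. The 5 genes with both are given as the 120 bases before the RefSeq start, 5′ to 3′ in the direction of the gene, with the searched letters in capitals. They are Cdc20 (chromosome 4, 118437344 to 118437463, minus strand), Cdk1 (chromosome 10, 69352913 to 69353032, minus strand), Kif11 (chromosome 19, 37376262 to 37376381, plus strand), Top2a (chromosome 11, 99024190 to 99024309, minus strand) and Ube2c (chromosome 2, 164769809 to 164769928, plus strand).
Cdc20: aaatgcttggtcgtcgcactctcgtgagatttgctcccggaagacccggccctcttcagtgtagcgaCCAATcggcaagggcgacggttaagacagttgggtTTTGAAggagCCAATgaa
Cdk1: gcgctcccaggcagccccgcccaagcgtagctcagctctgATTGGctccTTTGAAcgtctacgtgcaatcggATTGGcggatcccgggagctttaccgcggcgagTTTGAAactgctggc
Kif11: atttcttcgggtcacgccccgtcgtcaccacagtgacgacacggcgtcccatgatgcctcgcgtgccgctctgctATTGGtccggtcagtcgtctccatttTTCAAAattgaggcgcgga
Top2a: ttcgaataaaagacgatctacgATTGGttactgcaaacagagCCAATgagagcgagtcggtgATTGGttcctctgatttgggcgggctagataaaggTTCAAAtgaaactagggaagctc
Ube2c: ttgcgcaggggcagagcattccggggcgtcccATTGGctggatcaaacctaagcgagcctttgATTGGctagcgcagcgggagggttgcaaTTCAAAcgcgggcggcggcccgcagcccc
The matches overlapped in none of the 24 genes. A match describes letters in this window and is not a measured binding site.

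DNA replication genes fell too, 22 of 31 with none higher (median −0.68). Tyms, thymidylate synthase, had 71.9, 92.8 and 72 FPKM with vehicle and 29.9, 51.2 and 32.8 with the combination (−1.07 ± 0.27, adjusted p = 0.0124), and Ccne2, a cyclin of the start of replication, had 26.2, 28.7 and 22.7 against 5.74, 14.7 and 8.6 (−1.46 ± 0.39). Pcna, the sliding clamp, was 293, 256 and 305 against 159, 256 and 181 FPKM and did not pass (−0.55 ± 0.25, adjusted p = 0.0799). Genes that build ribosomes fell in 10 of 27, and the growth regulator Myc went from 75.6, 111 and 70.7 to 34.9, 46.9 and 40.6 FPKM (−1.04 ± 0.40, adjusted p = 0.0479). Of 80 ribosomal protein genes 1 rose and 5 fell. Replication calls in the 6 refits numbered 0, 27 and 0, then 4, 4 and 5, and their median was 0.04 with the fat score as a covariate. For ribosome building they numbered 0, 11 and 0, then 1, 0 and 1. For ribosomal proteins they numbered 0, 28 and 0, then 1, 1 and 1.

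Energy and stress genes were mixed. Glycolysis and hypoxia genes rose in 4 and fell in 1 of 25, and Slc2a1, the main glucose transporter, was 89, 18.6 and 55.9 against 47, 49.9 and 55.4 FPKM, with vehicle tumour 2 far below the other vehicle tumours. Of 80 nuclear respiratory chain genes 11 rose and none fell. Among 26 immediate early genes 11 rose and 6 fell. Fos went from 6.7, 6.39 and 8.37 to 51, 20.5 and 47.5 FPKM (2.30 ± 0.56) and Egr1 from 94.2, 103 and 110.1 to 25.6, 42.5 and 31 (−1.65 ± 0.50). Of 16 heat shock genes 1, the small chaperone gene Hspb1, rose (3.41 ± 0.81), and 2 fell. Of 12 genes of the adenosine pathway, which restrains T cells, 8 rose and 1 fell, with the receptor Adora2b at 2.06 ± 0.52 and the ectoenzyme Entpd1, or CD39, at 1.67 ± 0.45. Immediate early calls in the 6 refits numbered 0, 17 and 0, then 8, 8 and 12. Glycolysis calls numbered 0, 5 and 0, then 4, 4 and 3. Respiratory chain calls numbered 0, 15 and 1, then 5, 4 and 6. Adenosine calls numbered 1, 11 and 3, then 6, 6 and 7.

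In each of the 12 largest falls by the naming rule combination tumour 2 lay between vehicle and the other combination tumours. Cdh26, a cadherin, had 28, 31.7 and 23.2 FPKM with vehicle and 0.645, 8.56 and 1.23 with the combination (−3.41 ± 0.94, adjusted p = 0.0158). Fer1l6 had 22.6, 18.6 and 21.9 against 1.13, 8.99 and 1.42 FPKM (−2.79 ± 0.83), and Baiap2l1, which shapes actin at membranes, 445, 669 and 471 against 48.1, 211 and 61.8 (−2.59 ± 0.92). The claudins Cldn6 (−2.52 ± 0.72) and Cldn9 (−2.59 ± 0.66) fell, opposite to Cldn3 and Cldn4. The remaining falls were of Glod5, Dkk2, Krt20, Omd, Slc14a1, Nefl and Kcnk2, between −3.06 and −2.51. None of these 12 falls held in all 6 refits. Among the 85 falls that did, Inmt, a methyltransferase named after its values were seen, had 1.95, 3.19 and 2.81 against 0.302, 0.285 and 0.262 FPKM (−1.99 ± 0.23, adjusted p = 0.00152), and Agt, angiotensinogen, likewise chosen afterwards, had 2.76, 10.9 and 5.2 against 0.439, 1.02 and 0.629 (−2.34 ± 0.46). Among the 250 rises that did, also chosen afterwards, Hmox1, which breaks down haem, had 91.6, 38.9 and 76 against 535, 440.2 and 458 FPKM (2.87 ± 0.38, adjusted p = 0.00305), and Slpi, a secreted protease inhibitor, 2.77, 1.48 and 1.45 against 179, 27 and 65.9 (4.89 ± 0.88).

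Against serplulimab with HLX53 at the lower dose of 5 mg/kg, 21 of 15070 genes passed (0.139%), 20 higher at the full dose (0.133%) and 1 lower (0.00664%), and 1653 had an unadjusted p under 0.05 (11.0%). The gene that was lower was Cebpb (−0.77 ± 0.13). Of the 20 that were higher, 17 were tested only through the full-dose tumours, so that the filter favoured higher values there. The other 3 were Reg3g, Krt18 and Nnat. Reg3g, a secreted lectin of gut lining (ENSMUSG00000030017; chromosome 6, 78466269 to 78468872, minus strand), had 0.682, 1.84 and 0.0959 FPKM at the lower dose and 8.33, 6.22 and 12.3 at the full dose (2.95 ± 0.44, adjusted p = 0.0181). Krt18 had 10.7, 17.8 and 13.1 FPKM at the lower dose (1.28 ± 0.23, adjusted p = 0.0449), and Nnat, neuronatin, 1.1, 3.11 and 0.720 against 10.4, 15.2 and 10.6 (2.69 ± 0.39, adjusted p = 0.0181). Among the 17, Reg1, a relative of Reg3g (ENSMUSG00000059654; chromosome 6, 78422711 to 78428667, plus strand), had under 0.01, 0.397 and under 0.01 FPKM at the lower dose, 5.06, 7.52 and 3.58 at the full dose and under 0.2 with vehicle, and Krt14 had 0.0844, 1.09 and under 0.01 FPKM at the lower dose. In Reg3g, Reg1 and Krt14 the lowest full-dose tumour lay above all 15 other tumours of T2106. The count depended on tumour 2 of the 5 mg/kg group, which correlated at 0.978 with combination tumours 1 and 3. Without that tumour 5712 genes passed, and 1 without tumour 1 or tumour 3 of the same group. Without full-dose tumours 1, 2 and 3 the count was 0, 1 and 0. T cell receptor genes had a median difference of 0.55 between the doses, mitosis genes −0.21 and epithelial adhesion genes 1.40, and 0 genes of these lists passed. Of the 17 epithelial genes 9 were tested only through the full-dose tumours, where the filter favoured higher values, so these medians are not alike.

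**Figure D4:**
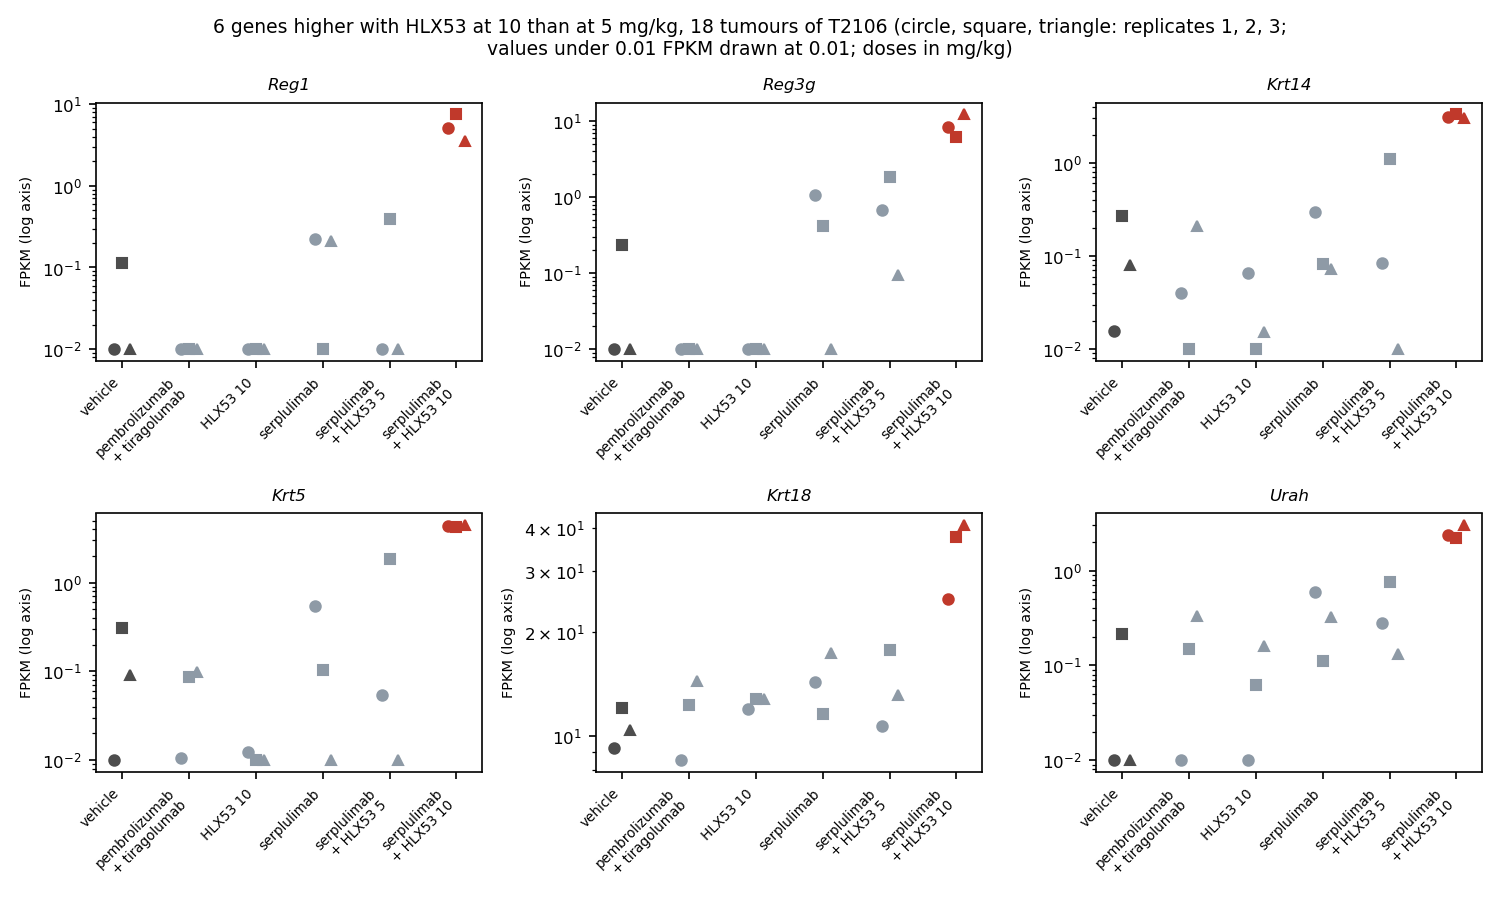
FPKM (log axis) of 6 genes that were higher with HLX53 at 10 mg/kg than at 5 mg/kg beside serplulimab, in the 18 tumours of T2106 by treatment group. The 3 full-dose tumours (red) lie above the other 15 in each panel, and Reg1, Krt14, Krt5 and Urah were tested only through them, with Krt5 at 4.24 to 4.42 FPKM.

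The single agents were set beside the combination with the same test. Against serplulimab alone 240 genes passed (1.59%), 212 higher (1.41%) and 28 lower (0.186%), and 5408 had an unadjusted p under 0.05 (35.9%). Without serplulimab tumour 1 the count was 3482, and without tumours 2 and 3 it was 11 and 1. Without combination tumours 1, 2 and 3 it was 0, 440 and 0. Against HLX53 alone 4032 genes passed (26.8%), 2722 higher (18.1%) and 1310 lower (8.69%), and 7301 had an unadjusted p under 0.05 (48.4%). That count was 213, 5859 and 77 without combination tumours 1, 2 and 3, and 660, 316 and 942 without HLX53 tumours 1, 2 and 3. Of the genes higher, 134 of 212 against serplulimab and 580 of 2722 against HLX53 were tested only through the combination tumours. These comparisons and that with vehicle share the combination tumours, so their values are given side by side only. Cd274 differed by 1.90 ± 0.47 from vehicle, 0.66 ± 0.47 from serplulimab (adjusted p = 0.3) and 0.47 ± 0.47 from HLX53 (adjusted p = 0.43). Retnla differed by 6.38 ± 0.96 from vehicle, 2.89 ± 0.96 from serplulimab (adjusted p = 0.0797) and 6.91 ± 0.96 from HLX53 (adjusted p = 0.00305). Epcam differed by 3.39 ± 0.61, 3.08 ± 0.61 (adjusted p = 0.0272) and 3.82 ± 0.61 (adjusted p = 0.0052) in the same order. Of the 17 epithelial adhesion genes 13 passed as higher than with serplulimab alone and 17 than with HLX53 alone, and of the 8 not tested only through the combination tumours 5 and 8. All 28 mitosis genes had negative differences from both single agents, of which 0 and 2 passed, with medians of −0.63 and −0.81.

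In T2215 the same treatment was compared with its own vehicle group. With limma 0 of 14914 genes passed (0.0%), and 2729 had an unadjusted p under 0.05 (18.3%). In T2215 the values of 1210 genes lay above vehicle without overlap (8.11%) and those of 2366 below (15.9%). Of the 3368 genes that rose in T2106 and were tested in both experiments 98.4% were higher in T2215, with a median of 0.61, and of the 3084 that fell 97.7% were lower, with a median of −0.39. Over all 14646 genes tested in both 44.7% were higher and 55.3% lower. The experiments had separate vehicle groups and separately made tables, and the difference in size between them was not tested. Retnla had 3.64, 1.66 and 0.454 FPKM with vehicle and 39.2, 285 and 23 with the combination in T2215 (4.98 ± 1.90), and Saa3 had 61.4, 75.1 and 16.5 against 385, 703 and 203 (3.15 ± 1.49). Epcam had 2.44, 0.0248 and 0.667 against 2.74, 11 and 0.179 FPKM (1.27 ± 1.01), and Cd274 19.6, 22.3 and 19 against 61.8, 36.8 and 28.2 (0.97 ± 0.86). Cdk1 had 226, 175 and 204 against 139, 76.9 and 167 FPKM (−0.72 ± 0.25). Medians in T2106 and T2215 were 3.81 and 1.83 for acute phase genes, 3.0 and 1.30 for fat genes, 2.14 and 0.79 for epithelial adhesion genes and −1.17 and −0.78 for mitosis genes. Of the 52 lists 46 had a T2215 median of the same sign and nearer to 0, and 2 one farther from 0. The other 4 had one of opposite sign, namely MHC class I, colon, glycolysis and heat shock genes. Each median was taken over the genes tested in that experiment, so its genes can differ. Of skeletal muscle genes, 7 were tested in T2106 and 17 in T2215.

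**Figure D5:**
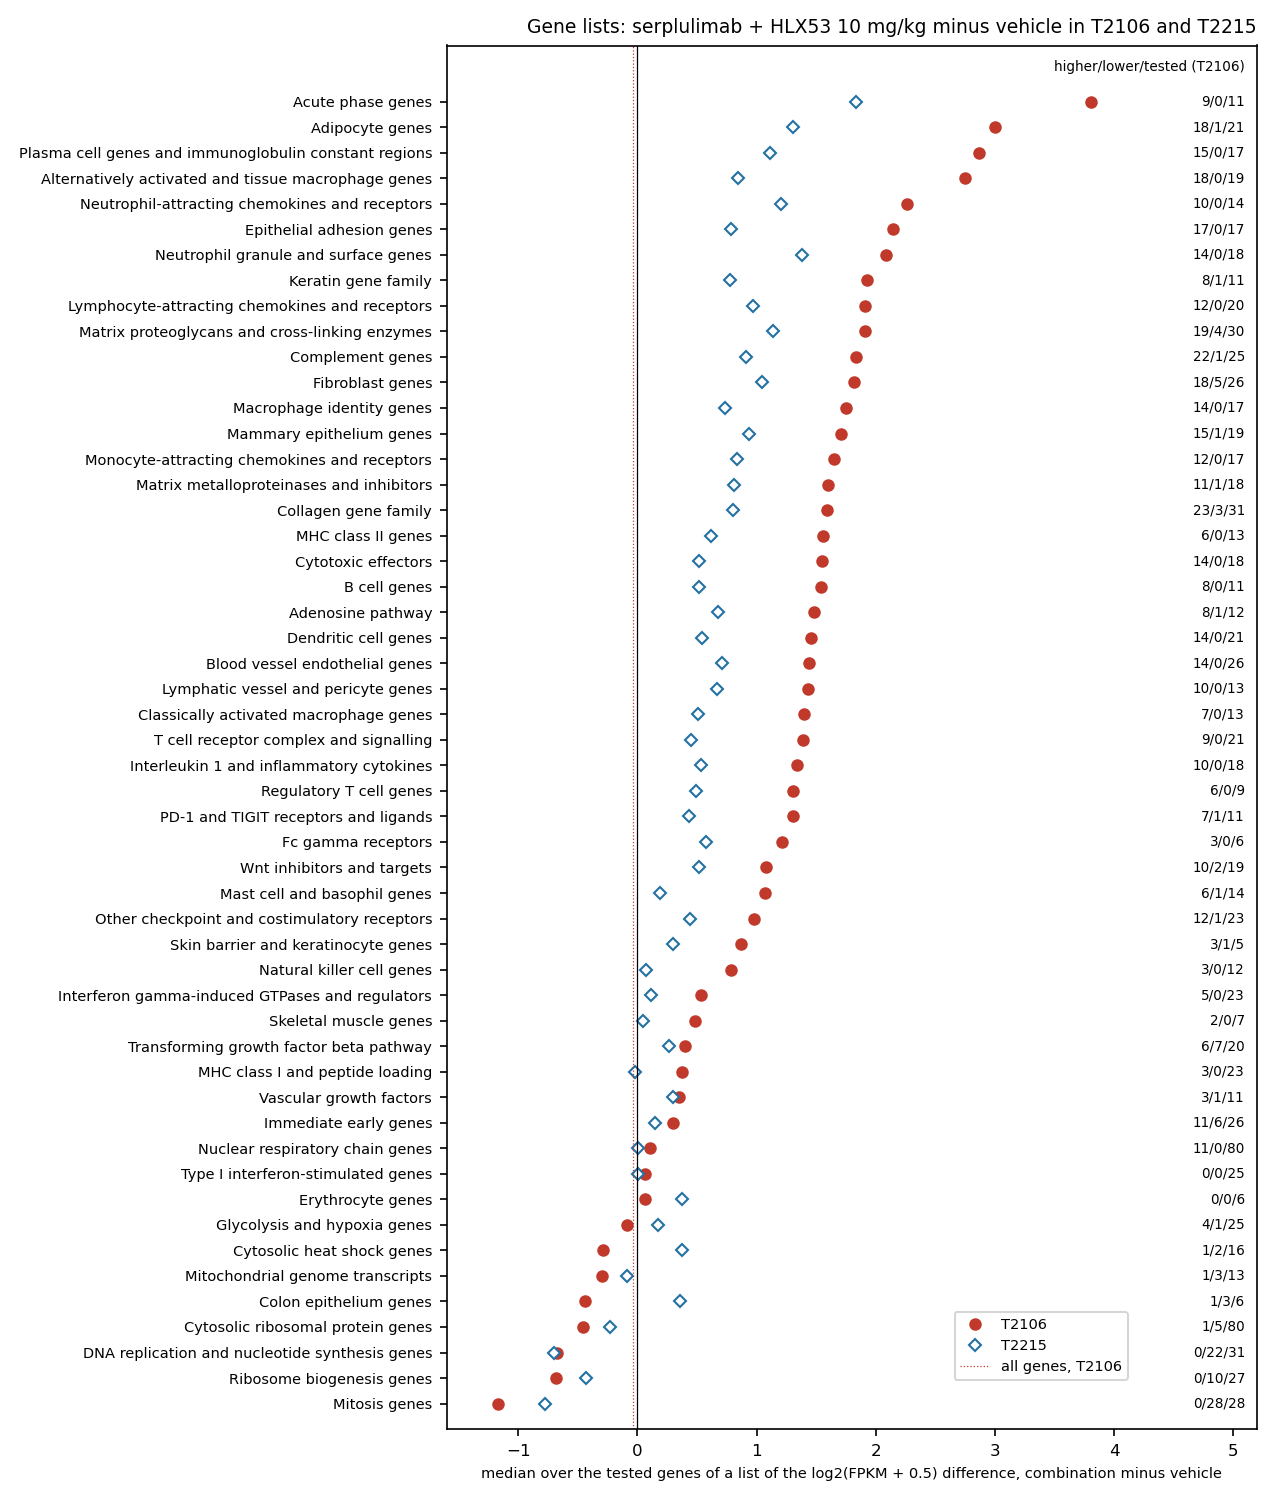
Median log2(FPKM + 0.5) difference between combination and vehicle (x axis) over the tested genes of 52 lists in T2106 (red circles) and T2215 (blue diamonds), with the numbers higher, lower and tested in T2106 at the right and the median of all genes as a dotted line. Lists run from mitosis genes at −1.17 to acute phase genes at 3.81 in T2106, and 46 of the 52 T2215 medians lie between 0 and the T2106 value. The tested genes of a list can differ between the experiments.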

How the data were processed

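Tumour RNA was sequenced in pairs of reads on an MGI instrument, per the labels' protocols. The authors deposited 1 table per experiment with log2 FPKM per gene and tumour, per the file headers, and these log2 values were turned back into FPKM. The submitters' processing notes name STAR, Bowtie, Trimmomatic and FastQC, with mm10, GRCh37 and hg19 as builds, and their roles are not given in the sources used here. No count is given, so the depth, and whether strand was used, are unknown. Gene positions are from GENCODE M21 (GRCm38), and promoters from RefSeq (GRCm38.p6). Where a symbol had more than 1 identifier (126 symbols) the one with the higher mean was used.

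Genes that reached 0.5 FPKM in 3 libraries or more entered limma 3.58.1 (R 4.3.3) on log2(FPKM + 0.5), a scale that understates changes of low genes, with all groups of the experiment in 1 fit, a mean-variance trend and Benjamini-Hochberg adjustment over all genes. Labels do not say whether tumours were separate mice, so p-values measure the spread between these samples. That spread is pooled within all groups of the experiment and is not that of the compared tumours alone. Genes named are fixed panel members of 52 lists, up to 2 further members of each list with the smallest p, and the 12 largest rises and 12 largest falls past the threshold without overlap and with a mean of 5 FPKM or more. Every other gene named, such as Gzmc to Gzmg, Reg1, Reg3g, Inmt, Agt, Hmox1 and Slpi, was added after its values were seen. Some genes that the rule names are not reported here. Members and lists were chosen with earlier results of these data known. Alternatives were other pseudocounts, filters, samples, scaling, variance model, a replicate block, the fat score as a covariate and leaving out each library.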

Additional observations from a re-analysis of the deposited data

How the results depend on the processing

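The number of genes past the threshold between combination and vehicle, 6633, was 6479 with a pseudocount of 0.1, 6686 with 1, 5552 with genes of 2 FPKM or more, 7503 with the compared groups alone, 6780 with centred libraries and 6529 without a trend. It was 3471 without a filter on low values, 3 with the fat score as a covariate, and 26 without the 3 libraries that stand apart, an alternative chosen after seeing the data that keeps 1 combination tumour. Leaving out 1 library gave 351 to 7345.

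Against the 5 mg/kg group the count of 21 was 1 and 37 with pseudocounts of 0.1 and 1, 157 without a filter, 2 with genes of 2 FPKM or more, 0 with the compared groups alone, 9 with centred libraries, 40 without a trend, 5 with the fat score and 0 to 5712 with 1 library left out. Against serplulimab the count of 240 was 5 with a pseudocount of 0.1, 410 without a filter, 2 with genes of 2 FPKM or more, 1 with the fat score, 1 without the 3 libraries and 0 to 3482 with 1 left out. Against HLX53 the count of 4032 was 1162 without a filter, 6454 with the compared groups alone, 0 with the fat score, 67 without the 3 libraries and 77 to 5859 with 1 left out. In T2215 the count of 0 was 2 without a filter, 1 with the compared groups alone and 0 to 12 with 1 left out. The cause was not tested.

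With the fat score as a covariate 16 list medians turned direction: PD-1 and TIGIT receptors and ligands −0.0583, T cell receptor complex and signalling −0.53, regulatory T cell genes −0.0216, Fc gamma receptors −0.27, dendritic cell genes −0.0272, MHC class II genes −0.25, transforming growth factor beta pathway −0.18, blood vessel endothelial genes −0.35, lymphatic vessel and pericyte genes −0.0511, skeletal muscle genes −0.62, DNA replication and nucleotide synthesis genes 0.0433, ribosome biogenesis genes 0.21, cytosolic ribosomal protein genes 0.29, glycolysis and hypoxia genes 0.62, cytosolic heat shock genes 0.22 and erythrocyte genes −0.52. So did 47 of the genes named, with log2 differences for Adipoq −0.49, Apln 0.0619, B2m −0.0868, Baiap2l1 0.35, C1qa −0.0181, Ccl5 −0.42, Cd226 −0.27, Cd3e −1.41, Cd4 −0.21, Cd8a −1.17, Cdh5 −0.92, Cfd −0.85, Cidec −0.37, Ciita −0.69, Clec9a −0.072, Col4a1 −0.32, Cxcl9 −1.11, Cxcr3 −0.49, Egr1 0.10, Fasl −0.32, Fcgr3 −0.30, Fcgr4 −0.61, Fer1l6 0.0184, Foxp3 −0.31, H2-Aa −0.22, Hbb-bs −0.57, Ifngr1 −0.30, Ighm −0.72, Il6 −0.00384, Lag3 −0.69, Ltbp1 0.47, Ltbp4 0.35, Ly6g −0.73, Myc 0.14, Pcna 0.25, Pdcd1 −1.10, Pdgfra −0.22, Pecam1 −0.17, Pvr 0.43, Pvrl2 −0.32, Rgs5 −0.37, Tgfb1 −0.0746, Tgfbr2 −0.21, Top2a 0.0557, Twist1 0.30, Twist2 0.13 and Vegfa 0.48. Adipoq, Cfd and Cidec belong to the list that makes the score, so their turn is built into this fit.

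Without a filter colon epithelium genes 0.024 turned. With genes of 2 FPKM or more skeletal muscle genes −0.0711 turned. With centred libraries B2m −0.0248 turned. Without the 3 libraries B2m −0.13, Isg15 −0.15, Mx1 −0.49, type I interferon-stimulated genes −0.27 and transforming growth factor beta pathway −0.16 turned. With 1 library left out 10 values near 0 changed sign, namely B2m (−0.0625 to 0.20), Isg15 (−0.0577 to 0.49), Mx1 (−0.20 to 0.95), type I interferon-stimulated genes (−0.21 to 0.25), H2-K1 (−0.13 to 0.23), Hbb-bs (−0.40 to 0.90), erythrocyte genes (−0.28 to 0.80), Cxcl9 (−0.0515 to 0.66), glycolysis and hypoxia genes (−0.51 to 0.32) and Slc2a1 (−0.47 to 0.64).

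With the replicate number as a block 5758 genes passed against vehicle, 10 against 5 mg/kg, 114 against serplulimab, 2754 against HLX53 and 0 in T2215. No label says that the numbers pair the samples, and correlations among 3 tumours per group cannot decide it. Same-numbered tumours deviated with correlations of −0.0712, −0.0561 and −0.15 against vehicle, −0.28, −0.68 and −0.29 against 5 mg/kg, 0.50, 0.51 and −0.20 against serplulimab, −0.11, 0.0165 and 0.0547 against HLX53 and −0.16, −0.13 and 0.46 in T2215. No comparison had all its correlations over 0.1 or every tumour closest to its own number. Depth is unknown, so the reads behind genes under about 0.5 FPKM cannot be stated, and 3 tumours per group limit each test.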
